A study of Mus musculus with 6 samples.

Results

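The clustered canonical histone genes were examined in RNA-seq libraries of STRA8+ germ cells from mouse testes. They were taken as every row of the deposited expression table whose gene name begins with *Hist1h*, *Hist2h*, *Hist3h* or *Hist4h*, which gave 70 members of 54532 genes. The members comprised 6 H1, 20 H2A, 19 H2B, 12 H3 and 13 H4 genes, of which 67 were listed as protein coding and 3 as pseudogenes. STRA8 is a retinoic acid-responsive protein of differentiating spermatogonia and early meiotic cells. The Control group (3 libraries) carried the genotype label Cre, and the cKO group (3 libraries) the label Srsf1 knockout, under a conditional knockout. The Cre driver, the age of the animals and the selection of RNA in library preparation were not given in the sources used here, and nothing said that the libraries came from separate animals, so p-values measure only the spread between these libraries. Values are FPKM, that is fragments divided by gene length in kilobases and by library size, and a level of 1 FPKM in the mean of the 6 libraries was required for testing.

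Canonical histones are made when DNA is copied, to package the new strand. H2A, H2B, H3 and H4 form the core particle around which DNA is wound, and H1 binds the linker between particles. The genes lie in clusters, carry almost no introns, and most of their mRNAs end in a conserved stem-loop instead of a poly(A) tail. The stem-loop binding protein SLBP and the U7 small nuclear ribonucleoprotein direct the cut just after this stem-loop. Some of the genes can also be read further, to a downstream poly(A) signal. Male germ cells add testis members, among them TH2A (*Hist1h2aa*), TH2B (*Hist1h2ba*) and H1t (*Hist1h1t*), and later replace most histones with protamines.

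In mm10, which is GRCm38, the *Hist1* genes lay on chromosome 13 in 2 dense blocks, with 24 members from 21715763 to 22043676 and 31 members from 23531050 to 23934851, and a lone pseudogene, *Hist1h2al*, at 51202727 to 51203065. The 10 *Hist2* members lay on chromosome 3 (96219865 to 96270132), the 3 *Hist3* members on chromosome 11 (58948920 to 58956830) and *Hist4h4* on chromosome 6 (136801553 to 136804415). All 70 were at the same place in the GENCODE M21 annotation. A stem-loop of 6 base pairs with a 4-base loop was found within 200 bases after the stop codon in 45 members, in 23 of which the annotated transcript ran on for at least 100 bases past it, and in 22 of which it ended sooner. The same search found a stem-loop in 0.156% of 21834 other genes. Another 22 members had none in their annotated transcript, which for many of them stopped at or near the stop codon, and the 3 pseudogenes had no coding transcript. The stem-loops of members described below are printed with 5 bases on each side, 5′ to 3′ from the M21 transcripts, with the stem-loop in capitals. *Hist1h4i*, *Hist3h2ba*, *Hist1h1c* and *Hist1h1t* have transcripts annotated far past it, *Hist1h4h* ends 46 bases after it, *Hist1h3a* and *Hist1h4n* are members of the short kind that were not called, and *Hist1h4a* has a loop unlike that of any other member.
Hist1h4i: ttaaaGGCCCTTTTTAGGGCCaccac
Hist1h4h: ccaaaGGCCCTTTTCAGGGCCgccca
Hist1h4n: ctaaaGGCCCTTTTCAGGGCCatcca
Hist1h4a: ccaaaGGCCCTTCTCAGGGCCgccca
Hist3h2ba: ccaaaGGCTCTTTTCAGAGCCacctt
Hist1h1c: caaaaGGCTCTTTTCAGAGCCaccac
Hist1h1t: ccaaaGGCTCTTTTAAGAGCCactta
Hist1h3a: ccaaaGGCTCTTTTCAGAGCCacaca
The commonest form, shared by *Hist3h2ba*, *Hist1h1c* and *Hist1h3a*, occurred in 25 members, while the form of *Hist1h4h* and *Hist1h4n* occurred in 7, all of class H4.

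Libraries held 14447887 to 17310353 fragments. *Srsf1*, the targeted splicing factor gene, was at 84.7, 45.2 and 51.9 FPKM in Control and at 5.08, 4.94 and 5.17 in cKO. *Stra8* was at 222 to 262 FPKM in Control and 242 to 313 in cKO. Of 15451 genes tested with limma on log2(FPKM + 1), 1821 were called higher in cKO and 3437 lower (Benjamini-Hochberg adjusted p at most 0.05). Quantile normalization turned this split to 5164 higher and 2527 lower, and the count called higher was 1065 without Control replicate 1, 1082 without Control replicate 3, 1178 without cKO replicate 1 and 965 without cKO replicate 3. All 10 spermatid markers and 9 of 10 pachytene spermatocyte markers were lower in cKO. The summed spermatid markers ran from 2548 to 8533 FPKM in Control, highest in Control replicate 2, and from 6.33 to 9.18 in cKO, and the pachytene markers from 541 to 712 and from 31.1 to 35.7. The spermatogonia markers (825 to 958 and 893 to 1021 FPKM, 1 of 10 lower) and the early meiotic prophase markers (974 to 1271 and 981 to 1277 FPKM, 1 of 10 lower) overlapped between the groups. The 28 somatic cell markers summed to 88.9 to 110 FPKM in Control and 88.2 to 155 in cKO, where *Rhox5* of Sertoli cells and *Col1a1* of peritubular cells were the 2 called higher of the 16 tested. Among these, the 6 peritubular markers summed to 5.93 to 9.50 FPKM in Control and 11.5 to 15.1 in cKO and did not overlap, while the Sertoli, Leydig, and macrophage and blood cell sums did. None of the markers of either germ or somatic cells was at 0 in every library. The part of these shifts in the histone results was not tested, and fewer cells of a type cannot be told apart from less RNA per cell.

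The summed level of the family was higher in cKO, and most of the difference lay in class H4. Without the pseudogene *Hist1h2al*, which is described last, the members summed to 110, 124 and 114 FPKM in Control and to 222, 223 and 182 in cKO, a ratio of means of 1.80. These are low levels for so large a family, as the replacement histone gene *H2afz* alone stood at 129 to 135 FPKM in Control. The H4 genes summed to 34.4 ± 9.30 FPKM in Control and 95.2 ± 14.3 in cKO (SD, n = 3), or 2.77 times as much. The H2A genes summed to 12.5 ± 1.84 and 23.4 ± 2.76 FPKM and the H2B genes to 42.1 ± 2.59 and 55.2 ± 6.67, with every cKO library above every Control library. Only 2 H2B genes were called higher, *Hist1h2bc* (means of 0.912 and 7.94 FPKM) and *Hist3h2ba* (1.34 and 8.91), so the H2B sum does not show a rise across the class. The sums of the H1 genes (16.4 ± 2.88 and 22.7 ± 3.01 FPKM) and of the H3 genes (10.5 ± 0.870 and 12.5 ± 2.05) overlapped between the groups. Without *Hist1h4i* the H4 sums overlapped too, with 29.1 ± 9.12 FPKM in Control and 49.2 ± 11.1 in cKO.

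**Figure D1:**
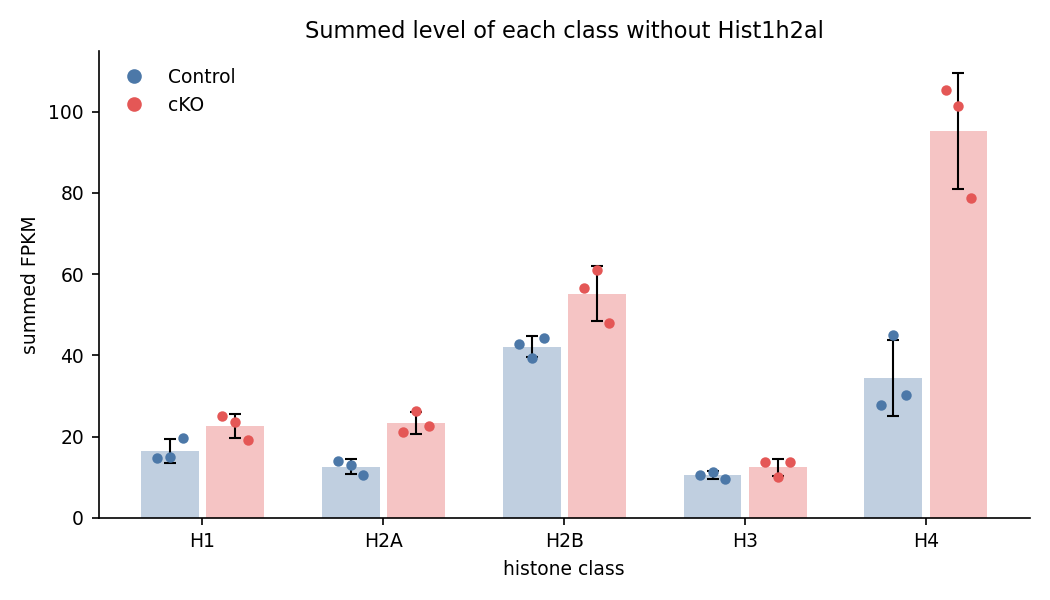
Summed FPKM of each histone class without *Hist1h2al*, with 1 point per library, bars for the mean of 3 libraries and error bars for the SD. The H4 sum went from 34.4 in Control to 95.2 in cKO, while the H1 and H3 points of the groups overlap.

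At the level of single genes, 31 members reached the 1 FPKM limit, 33 lay below it and 6 were at 0 in every library. Of the 31 tested, 11 were called higher in cKO and 2 lower, against 11.8% of all genes tested called higher and 22.2% called lower. Every cKO library was above every Control library for 12 of the 31, and below for 5, against 21.8% and 28.6% of all genes tested. The family was chosen by values of this same contrast, so these counts describe it and carry no test, and no p-value is given for a member. The median difference in log2(FPKM + 1) was 0.29 over the 31 members and -0.0082 over all genes tested. Of the 31, 7 had a mean under 1 FPKM in one group and were tested only because of the other. They were *Hist1h4h*, *Hist1h2bc* and *Hist3h2a*, called higher, *Hist2h2be*, called lower, and *Hist1h2ab*, *Hist1h2ak* and *Hist3h2bb-ps*, not called. Among the 24 others 8 were called higher and 1 lower, with a median difference of 0.088. By class, over all 31, 5 of 8 H4 genes were called higher, 2 of 3 H1, 2 of 7 H2A, 2 of 10 H2B and 0 of 3 H3, and the 2 called lower were an H1 and an H2B gene. By cluster, 9 of the 27 tested *Hist1* members were called higher and 1 lower, while 2 of the 3 *Hist3* members were called higher and the only tested *Hist2* member was called lower. Members share sequence, and where fewer than 60% of the 100-base windows of a gene are unique to it, reads of one copy could be counted on another. Of 22 tested members with at least 60% unique windows, 10 were called higher and 2 lower, and of the 9 others 1 was called higher.

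**Figure D2:**
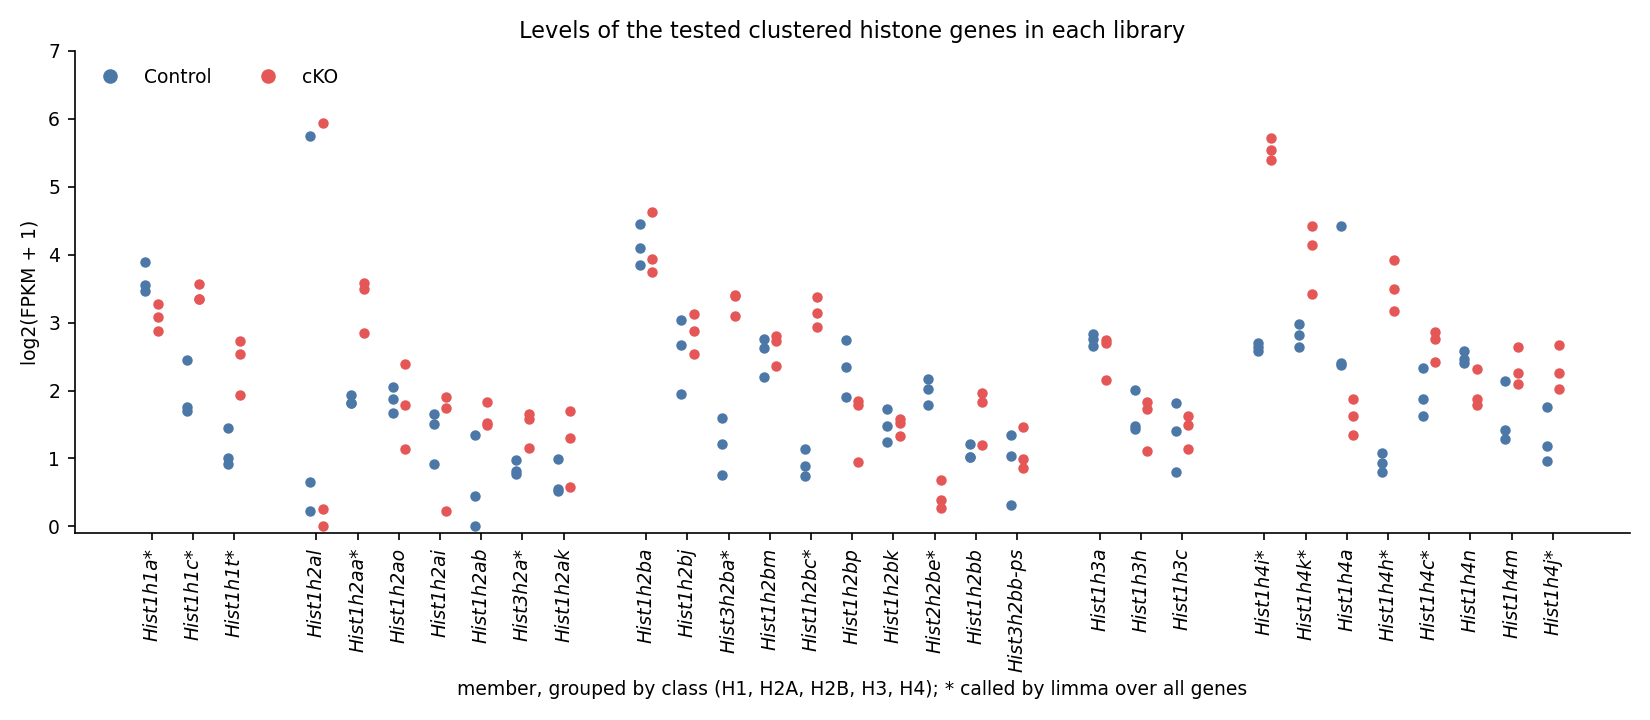
Level of each of the 31 tested members as log2(FPKM + 1), 1 point per library, with Control left and cKO right of each tick, ordered by mean level within a class. The cKO points of *Hist1h4i*, *Hist1h4h*, *Hist1h2bc* and *Hist3h2ba* lie far above the Control points, those of *Hist2h2be* lie below, and the H3 points overlap.

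The H4 gene *Hist1h4i* (ENSMUSG00000060639) showed the largest difference of the family on the log2(FPKM + 1) scale. It was at 5.26, 5.47 and 5.01 FPKM in Control and at 45.3, 51.6 and 41.1 in cKO, from 61 to 63 fragments in each Control library and 454 to 549 in each cKO library. The groups lay far apart, with cKO 8.77 times Control, and the difference in log2(FPKM + 1) was 2.91 (SE 0.10). Its share of the family's summed FPKM without *Hist1h2al* went from 4.38% to 4.79% in Control to 20.5% to 23.2% in cKO. *Hist1h4h*, another H4 gene, was at 0.904, 1.11 and 0.738 FPKM in Control and 14.1, 10.3 and 7.98 in cKO, with a difference of 2.59 (SE 0.20). By ratio of means it stood higher than *Hist1h4i*, at 11.8 times Control, from 6 to 8 fragments in each Control library. The 2 groups did not overlap in either gene. Unique windows made up 84.9% of *Hist1h4i* and 61.5% of *Hist1h4h*. *Hist1h4k* followed with 6.03, 5.23 and 6.86 FPKM in Control and 20.4, 16.6 and 9.70 in cKO, but only 35.7% of its windows are unique to it.

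Other H4 genes differed less, or in the other direction. *Hist1h4j* (difference 1.02, SE 0.25) and *Hist1h4c* (0.74, SE 0.21) were called higher, and neither was called without Control replicate 1, without Control replicate 2 or without cKO replicate 1. *Hist1h4n* was at 4.30 to 5.01 FPKM in Control and 2.45 to 3.97 in cKO, with 19.3% unique windows, and was not called. *Hist1h4a* was at 4.17, 20.5 and 4.29 FPKM in Control and 1.53, 2.66 and 2.08 in cKO. All 3 cKO libraries were below the Controls, but Control replicate 2, which also had the highest spermatid markers, stood far above the other two, and the difference of -1.45 (SE 0.54) was not called. Without that library the difference was -0.77, and the gene was called lower.

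Among the linker histones, *Hist1h1c*, the gene of a somatic H1 subtype, was at 2.37, 2.26 and 4.48 FPKM in Control and 9.14, 10.8 and 9.19 in cKO. Every cKO library was above every Control library, and the difference was 1.45 (SE 0.21). *Hist1h1t*, whose product H1t replaces much of the somatic H1 in spermatocytes, was at 1.73, 1.00 and 0.887 FPKM in Control and 5.65, 4.79 and 2.81 in cKO (difference 1.28, SE 0.25). *Hist1h1t* was thus higher in the libraries in which 9 of 10 pachytene markers were lower. *Hist1h1a* went the other way, with 9.995, 10.7 and 13.9 FPKM in Control and 8.67, 7.46 and 6.30 in cKO (difference -0.56, SE 0.15). This call was lost in 7 of 15 alternatives, among them limma-voom on the recovered fragments and the fits without Control replicate 3, cKO replicate 2 or cKO replicate 3. *Hist1h1e* averaged 0.442 FPKM in Control and 0.878 in cKO, below the limit for testing, and it overlaps *Hist1h2be* on the same strand (0.0510 and 0.351 FPKM), so fragments of the overlap could belong to either.

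Of the H2B genes, *Hist1h2bc* was at 1.21, 0.677 and 0.850 FPKM in Control and 7.82, 6.68 and 9.33 in cKO (difference 2.22, SE 0.16). *Hist3h2ba* was at 0.692, 2.02 and 1.32 FPKM in Control and 9.54, 7.56 and 9.64 in cKO (difference 2.11, SE 0.22), with 95.1% unique windows. All cKO libraries were above all Control libraries for both genes, with ratios of means of 8.71 and 6.64. *Hist2h2be* was the largest fall called in the family, with 3.50, 2.44 and 3.04 FPKM in Control and 0.607, 0.313 and 0.201 in cKO. It did not overlap between the groups, all of its windows are unique to it, and the difference was -1.54 (SE 0.18). *Hist1h2bp* was at 2.75 to 5.73 FPKM in Control and 0.932 to 2.61 in cKO and was not called. The abundant H2B genes *Hist1h2bj* (5.15 ± 2.18 and 6.29 ± 1.43 FPKM) and *Hist1h2bm* (4.86 ± 1.13 and 5.23 ± 0.959) overlapped between the groups.

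The *Hist3* neighbours on chromosome 11 were not alike. *Hist3h2a* was at 0.764, 0.973 and 0.700 FPKM in Control and 1.22, 2.005 and 2.15 in cKO (difference 0.61, SE 0.18). Its call was lost without Control replicate 1, Control replicate 3, cKO replicate 2 or cKO replicate 3. *Hist3h2a* also overlaps *Trim17* on the same strand, which was at 7.70 to 26.3 FPKM in Control and 2.05 to 2.40 in cKO, so fragments of the overlap could belong to either. The pseudogene *Hist3h2bb-ps* overlapped between the groups, with 0.945 ± 0.653 FPKM in Control and 1.19 ± 0.502 in cKO. No H3 gene was called. *Hist1h3a*, the highest of them, was at 6.14, 5.74 and 5.30 FPKM in Control and 5.48, 3.45 and 5.67 in cKO, and *Hist1h3c* and *Hist1h3h* had group means of 1.63 to 2.16 FPKM and overlapped. Only 8.0% of the windows of *Hist1h3h* are unique to it, against 67.8% and 71.6% for *Hist1h3a* and *Hist1h3c*. Among the H2A genes, *Hist1h2ao* (2.65 ± 0.479 and 2.64 ± 1.54 FPKM) and *Hist1h2ai* (1.63 ± 0.666 and 1.76 ± 1.39) overlapped as well, with under 12% unique windows each.

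The 33 members under the limit, which rest on few fragments per library, were not tested. In 11 of them every cKO library was above every Control library, and in 3 below, against 8.10% and 14.1% of the 20543 genes at such levels. *Hist2h3c2*, an H3 gene with 38.4% unique windows, was at 0.119, 0.448 and 0.567 FPKM in Control and 1.56, 1.00 and 1.23 in cKO, and *Hist4h4*, the only gene of its cluster, at 0.339, 0.0912 and 0.162 and at 1.04, 0.644 and 0.345. The 6 members at 0 throughout were *Hist1h2af*, *Hist2h2aa1*, *Hist2h2aa2*, *Hist2h2bb*, *Hist2h3b* and *Hist2h3c1*. Between 0% and 54.6% of their windows are unique, so a count of 0 may say little about their transcription.

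Among members with an annotated stem-loop, calls were more frequent where the annotated transcript ran further past it. Of the 8 tested members whose transcript is annotated for at least 100 bases past the stem-loop, 7 were called higher, namely *Hist1h4i*, *Hist3h2ba*, *Hist1h1c*, *Hist1h1t*, *Hist1h4j*, *Hist1h4c* and *Hist3h2a*. The remaining one was *Hist1h4a*, which lay 108 bases past the stem-loop and was the nearest to the limit. Of the 11 whose transcript ends sooner, at 3 to 74 bases past the stem-loop, only *Hist1h4h* was called. The shares called higher were 87.5% and 9.09%, beside 11.8% of all genes tested, so that of the shorter kind was near the background. The contrast was smaller without Control replicate 1. *Hist1h4j*, *Hist1h4c* and *Hist3h2a* of the longer kind then lost their calls, and *Hist1h2ab* of the shorter kind was called higher. *Hist1h4h* was also the only tested member of this kind with a poly(A) signal (AATAAA or ATTAAA) in the last 40 bases of its transcript. Such a signal was found in 7 of the 8 longer transcripts, and in 70.1% of 21834 other genes. Over all tested members, 10 had it, of which 7 were called higher and 1 lower. In 3 of the 10, *Hist2h2be*, *Hist1h2bp* and *Hist1h4a*, every cKO library was below every Control library. Of 19 coding members without it, 4 were called higher and 1 lower. The median difference in log2(FPKM + 1) was 1.15 for the longer kind and 0.095 for the shorter kind. *Hist3h2a* and *Hist1h4h* are among the members that passed the limit only through cKO, and with means of at least 1 FPKM in both groups 6 of 7 longer and 0 of 9 shorter members were called higher. The 2 kinds also differed in unique windows, with 68.2% to 100% in the 8 longer members and under 60% in 6 of the 11 shorter ones. Of the 5 shorter members with at least 60% unique windows, 1 was called higher. The part of this difference in the counts was not tested.

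Summed levels also differed between the 2 kinds. The 23 members of the longer kind summed to 20.7, 37.8 and 27.0 FPKM in Control and 93.3, 93.8 and 83.2 in cKO, a ratio of 3.16. Without *Hist1h4i* they summed to 23.3 ± 8.54 and 44.1 ± 3.31 FPKM and still did not overlap. The 22 members of the shorter kind summed to 38.7, 33.6 and 28.0 FPKM in Control and 55.0, 51.4 and 40.6 in cKO, a ratio of 1.46, and without *Hist1h4h* these sums overlapped, with 32.5 ± 5.24 and 38.2 ± 4.85 FPKM. Below the limit for testing, 7 of 14 longer members and 4 of 9 shorter ones above 0 had all cKO libraries above all Control libraries, and 0 and 2 had all below, beside 8.10% and 14.1% of all genes at such levels. The grouping and the limit of 100 bases were chosen with the values known, and no test is given. The annotation does not show which 3′ end was used in these cells, and the table holds 1 value per gene.

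**Figure D3:**
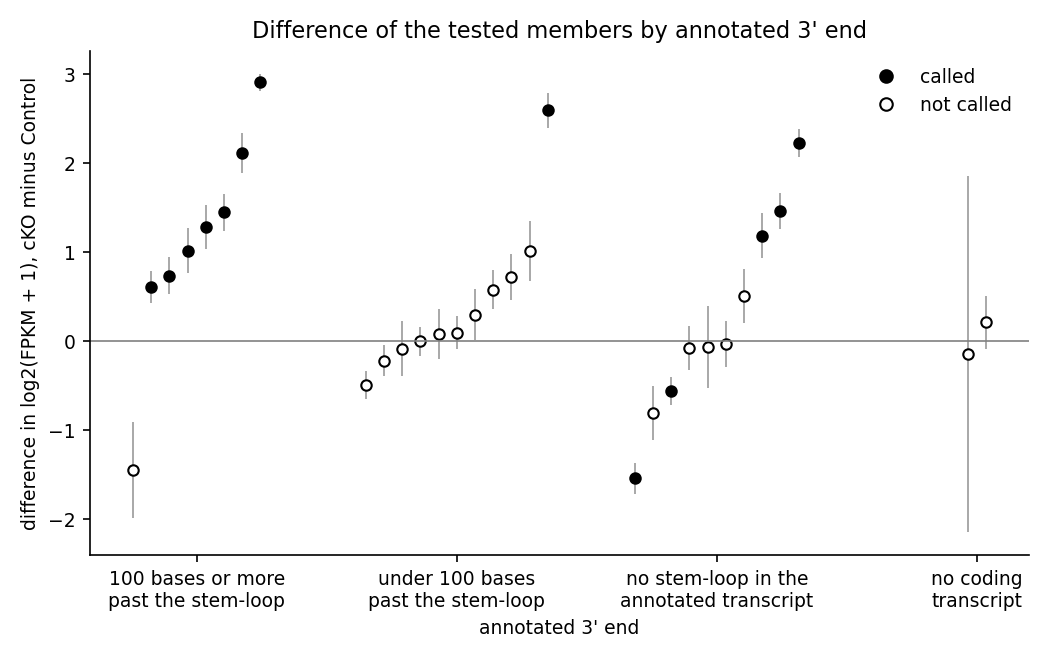
Difference in log2(FPKM + 1), cKO minus Control, of each of the 31 tested members, grouped by annotated 3′ end, with bars for the SE and filled points for members called by limma over all genes. Of the transcripts reaching 100 bases or more past the stem-loop, 7 of 8 points are filled and above 0, and of the shorter ones 1 of 11.

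The 22 members with no stem-loop in their annotated transcript were mixed, and held 5 of the 13 called members. Of the 10 tested, *Hist1h2bc*, *Hist1h2aa* and *Hist1h4k* were called higher and *Hist2h2be* and *Hist1h1a* lower. Over all genes tested, 11.8% were called higher and 22.2% lower, so the share called lower in this group was near the background. *Hist1h2bc* and *Hist2h2be* have 742 and 2192 bases after the stop codon, and moved in opposite directions. For *Hist1h2aa* and *Hist1h4k* the annotation stops at the stop codon, so their end could not be placed.

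H2A and H2B genes often stand back to back and share a promoter region. There were 14 such divergent pairs, all of an H2A and an H2B gene, with 172 to 305 bases between them, and both genes were tested in only 2. In the testis pair the partners differed. *Hist1h2ba* (TH2B), the most abundant member in Control apart from *Hist1h2al*, was at 16.1, 13.4 and 20.9 FPKM in Control and 14.3, 23.8 and 12.3 in cKO, with overlapping groups and a difference of -0.03 (SE 0.26). *Hist1h2aa* (TH2A), 305 bases away, was at 2.80, 2.51 and 2.52 FPKM in Control and 6.20, 11.03 and 10.3 in cKO, with a difference of 1.46 (SE 0.20) and no overlap. All windows of *Hist1h2aa* and 72.6% of those of *Hist1h2ba* are unique.

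In several other pairs only the H2B gene reached the limit for testing, and in 2 of these it was called. *Hist1h2ac*, the partner of *Hist1h2bc*, had 1, 3 and 3 fragments in Control and 43, 54 and 49 in cKO, with every cKO library above every Control library, as in *Hist1h2bc*. *Hist2h2ac*, the partner of *Hist2h2be*, had 9, 5 and 6 fragments in Control and 0, 0 and 1 in cKO. The next gene, *Hist2h2ab*, had 3, 4 and 1 in Control and none in any cKO library. It overlaps *Gm15444* on the other strand, which had 11, 3 and 6 fragments in Control and 1, 0 and 0 in cKO, and with the strandedness not given the fragments of the overlap could belong to either. Of these *Hist2* genes only *Hist2h2be* was tested and called. The counts of *Hist2h2ac* and *Hist2h2ab* are too small for a fold. In the remaining pairs of this kind the H2B gene was not called, and partners did not always share a sign. The H2A and H2B differences were 0.38 and -0.81 for *Hist1h2an* and *Hist1h2bp*, and -0.21 and 0.29 for *Hist1h2ag* and *Hist1h2bj*. For *Hist1h2ah* and *Hist1h2bk* they were 0.17 and -0.0030, and for *Hist1h2aj* and *Hist1h2bm* 0.15 and 0.095. These H2A genes rest on few fragments.

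**Figure D4:**
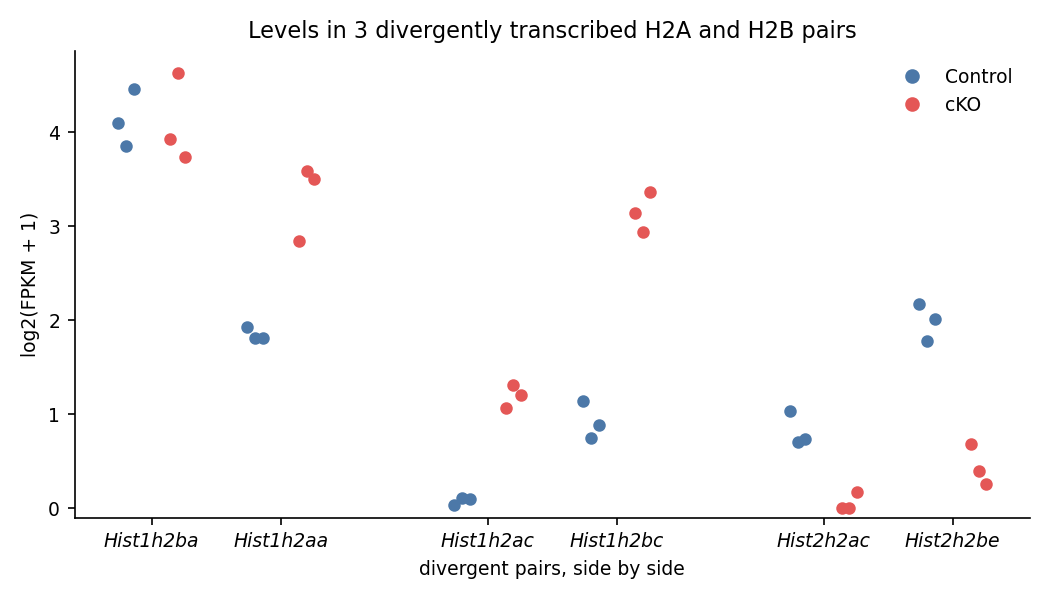
Level of both genes in 3 of the 14 divergent pairs as log2(FPKM + 1), 1 point per library. *Hist1h2ba* overlaps between the groups while *Hist1h2aa* is higher in every cKO library, the cKO points of both genes lie above the Control points in the second pair and below them in the third, where the H2A genes were under the limit for testing.

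Promoters of 61 members were found in RefSeq (GRCm38.p6), each from 250 bases before to 50 after the start. The CCAAT box, which binds NF-Y, was present on either strand in 5 of 5 H1, 18 of 18 H2A, 16 of 16 H2B and 10 of 10 H3 promoters but in 3 of 12 H4 promoters, and in 37.9% of all 27025 promoters. TATAAA was found in 55.7% of the members' promoters and 14.2% of all. The octamer ATTTGCAT, a site of the factor encoded by *Pou2f1*, was found in 7 H2A and 6 H2B promoters, in none of the other classes, and in 1.8% of all. These matches describe letters in a window and do not show binding. The promoter of *Hist1h4i* is shown as that of the largest difference in log2(FPKM + 1), and that of *Hist1h2aa* because it also covers most of the region shared with *Hist1h2ba*, whose groups overlapped. Both are printed 5′ to 3′ on the strand of the gene, with matches to these 3 motifs on either strand in capitals.
Hist1h4i, chr13:22041313-22041612, minus strand: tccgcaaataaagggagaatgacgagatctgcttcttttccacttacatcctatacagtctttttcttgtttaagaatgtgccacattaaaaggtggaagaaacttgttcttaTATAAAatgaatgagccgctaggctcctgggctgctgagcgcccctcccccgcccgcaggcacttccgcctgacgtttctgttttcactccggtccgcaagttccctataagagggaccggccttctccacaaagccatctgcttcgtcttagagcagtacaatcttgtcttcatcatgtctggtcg
Hist1h2aa, chr13:23934187-23934486, plus strand: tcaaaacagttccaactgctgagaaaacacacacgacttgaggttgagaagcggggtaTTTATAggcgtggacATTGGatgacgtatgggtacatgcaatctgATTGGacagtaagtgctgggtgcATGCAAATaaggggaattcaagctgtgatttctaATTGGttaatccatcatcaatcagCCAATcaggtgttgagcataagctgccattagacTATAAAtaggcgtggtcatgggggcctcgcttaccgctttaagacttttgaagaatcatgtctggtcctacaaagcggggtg
The first holds TATAAA once and no CCAAT, and the second holds CCAAT 4 times, TATAAA 2 times and the octamer once.

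The genes that make, process and remove histone mRNA or handle histone proteins as chaperones differed less than the largest members. Of these 43 genes, all tested, 9 were called higher in cKO and 3 lower. Their median difference was 0.12, beside 0.29 over the 31 tested members and 0.088 over the 24 with means of at least 1 FPKM in both groups. Calls in this and the following lists stand beside 11.8% of all genes tested called higher and 22.2% called lower. Quantile normalization gave 21 higher and none lower. Among the transcription factors of histone genes, *Casp8ap2* (0.67, SE 0.20, adjusted p = 0.039), whose product FLASH also joins the processing complex, and *Pou2f1* (0.32, SE 0.08, adjusted p = 0.021) were the 2 of 8 called, both higher. *Npat*, the histone locus coactivator, was at 30.3 to 37.3 FPKM in Control and 38.1 to 55.8 in cKO and was not called (0.38, SE 0.15, adjusted p = 0.099). Here and below, limma p-values of listed genes were adjusted by Benjamini-Hochberg over all genes tested. The lists were chosen with earlier results of these data known, which these p-values do not take into account.

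Of the 11 genes of 3′ end processing, 1 was called higher and 2 lower. *Slbp*, which encodes the stem-loop binding protein, was at 41.7 to 43.2 FPKM in Control and 43.1 to 52.4 in cKO and was not called (limma, 0.14, SE 0.08, adjusted p = 0.23). *Lsm11*, a U7-specific protein gene, was at 4.22, 3.06 and 3.92 FPKM in Control and 2.28, 2.30 and 2.28 in cKO (limma, -0.52, SE 0.13, adjusted p = 0.021). Its U7 partner *Lsm10* was at 8.95 to 12.0 and 7.97 to 9.56 FPKM and was not called (limma, adjusted p = 0.22). *Sympk*, a scaffold of the cleavage complex, was lower (limma, -0.25, SE 0.07, adjusted p = 0.035), and *Ncbp2*, of the nuclear cap-binding complex, was higher (limma, 0.34, SE 0.08, adjusted p = 0.018).

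Of 10 genes of histone mRNA decay, 4 were called higher and none lower. They were the terminal uridylyltransferase gene *Tut4* (0.63, SE 0.10), the exonuclease gene *Xrn1* (0.50, SE 0.10), the kinase gene *Smg1* (0.37, SE 0.09) and *Lsm1* (0.24, SE 0.07), with limma adjusted p of 0.0026, 0.0094, 0.023 and 0.038. Of 14 histone chaperone genes, *Hat1* (0.31) and *Rbbp7* (0.27) were higher and *Chaf1a*, of the chromatin assembly factor CAF-1, lower (-0.26, limma adjusted p = 0.037). *Nasp*, an H1 and H3-H4 chaperone, was at 111 to 147 FPKM in Control and 97.3 to 118 in cKO and was not called (limma, -0.33, SE 0.13, adjusted p = 0.090). The 3 lower calls among the 43 genes were all lost without Control replicate 1, Control replicate 3 or any single cKO library, and the higher calls then fell from 9 to between 4 and 6.

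**Figure D5:**
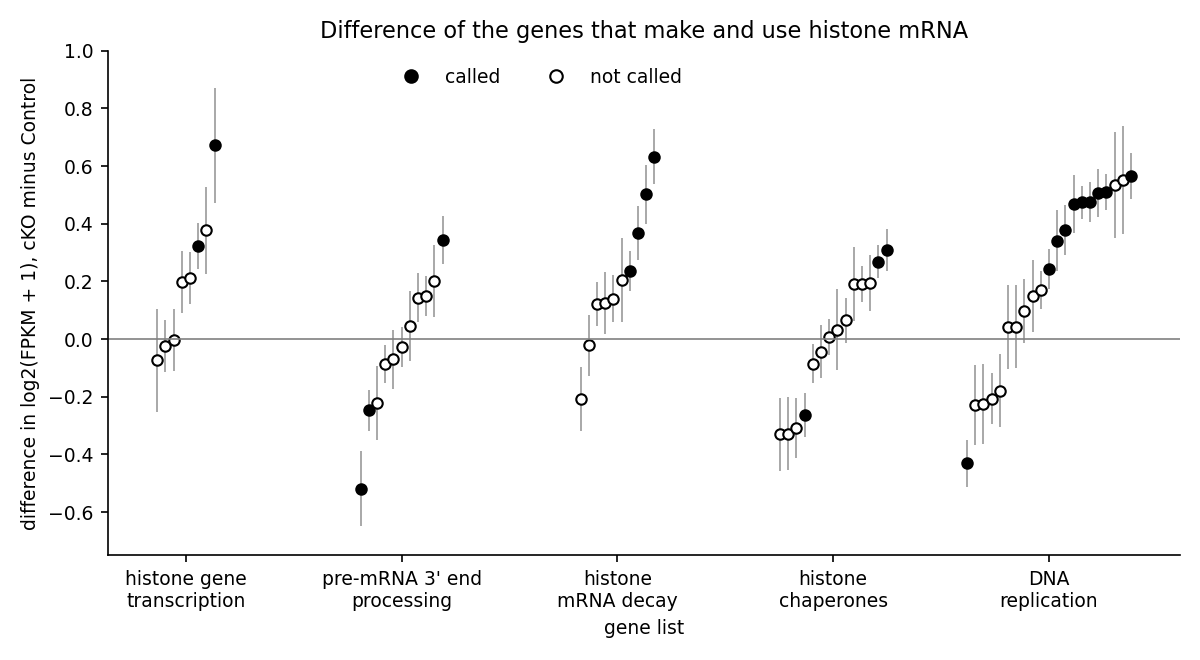
Difference in log2(FPKM + 1), cKO minus Control, of each gene in 4 lists of histone mRNA production, decay and use and in the DNA replication list, with bars for the SE and filled points for genes called by limma. Filled points lie between -0.52 for *Lsm11* and 0.67 for *Casp8ap2*, a narrower range than that of the members.

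DNA replication genes, which are expressed in the same phase of the cell cycle as the canonical histones, were called higher in 9 of 21 cases and lower in 1. The helicase genes *Mcm5* (0.51, SE 0.08, adjusted p = 0.0038) and *Mcm4* (0.51, SE 0.06, adjusted p = 0.0010) and the loading and initiation genes *Cdc6* (0.57, SE 0.08, adjusted p = 0.0020) and *Cdc45* (0.48, SE 0.07, adjusted p = 0.0023) were the largest rises among those called by limma. *Gins1* fell by 0.43 (limma adjusted p = 0.0075). The median difference over the list was 0.24. Leaving out single libraries gave 6 to 9 higher calls.

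Histone variant genes outside the clusters were also examined. Of 13, 8 were called higher and 2 lower. *H2afx*, the gene of the variant phosphorylated at DNA breaks, was at 55.3, 67.9 and 56.1 FPKM in Control and 169, 145 and 142 in cKO (limma, 1.34, SE 0.11, adjusted p = 0.00015). *H2afj* (1.02), the linker histone gene *H1f0* (0.87) and the centromeric H3 gene *Cenpa* (0.76) followed, with limma adjusted p from 0.0025 to 0.0093. The spermatid linker histone genes *H1fnt* and *Hils1* were the 2 called lower, and *H1fnt* was at 0 in all 3 cKO libraries and at 54.8 to 133 FPKM in Control. Of 12 other RNAs that carry no poly(A) tail, 9 were below the limit for testing, 3 of them at 0 throughout, and only *Rn7sk* was called, at 6.46 to 6.97 FPKM in Control and 9.74 to 21.7 in cKO (limma, 0.88, SE 0.27, adjusted p = 0.043). These 12 summed to 8.94 to 11.4 FPKM in Control and 17.0 to 39.2 in cKO, and their part in the histone results was not tested.

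*Hist1h2al* was set apart because it followed the replicate number and not the genotype. It was at 52.5 FPKM in Control replicate 1 and 60.1 in cKO replicate 1, and at most 0.577 in the other 4 libraries. With it, the summed H2A level would be led by those 2 libraries, and the family total was 162, 124 and 115 FPKM in Control and 282, 223 and 183 in cKO. Across the whole table, 1 further gene had at least 5 FPKM in both libraries numbered 1 and under 1 in the rest.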

How the data were processed

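Total RNA was extracted from STRA8+ cells and made into 3 Control and 3 cKO libraries, by a selection step, if any, that was not given in the sources used here. Per the labels, reads were aligned with HISAT2 2.0.5 to mm10. The counting tool, annotation release and strandedness were not given in the sources used here. The authors deposited 1 table of FPKM with a gene length per row. FPKM multiplied by gene length and divided by a unit fitted in each library gave whole fragments for 100% of values (tolerance 0.1). The library size implied by this unit was 0.971 times the summed fragments in Control replicate 1 and 1.05 times in cKO replicate 3, the 2 extremes. Genes whose mean over all libraries reached 1 FPKM were tested with limma 3.58.1 (R 4.3.3, empirical Bayes with trend) on log2(FPKM + 1), which understates changes of low genes, with Benjamini-Hochberg adjustment at 0.05. Only counting error is covered by fragment counts.

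The members and gene lists were chosen with earlier results of these data known. Named members were the 4 highest of each class, the 3 testis members, all tested members outside *Hist1*, and the 5 largest rises and falls without overlap. Named list genes were up to 4 called in each direction per list, and *Slbp*, *Npat*, *Casp8ap2*, *Lsm10*, *Lsm11* and *Nasp*. *Hist1h4c*, *Hist1h4j*, *Hist1h2ab*, *Hist1h2ak*, *Hist1h4m*, *Hist1h2be*, *Hist1h3g*, *Hist1h4b*, *Hist1h2ac*, *Hist1h2ag*, *Hist1h2ah*, *Hist1h2aj*, *Hist1h2an*, *Hist1h2bk*, *Hist2h2ac*, *Hist2h2ab*, *Hist4h4*, the 6 members at 0, *H2afz*, *Trim17*, *Gm15444* and *Stra8* were named after their values were seen. *Tut4* was listed under its older symbol and matched through RefSeq synonyms. Alternatives were the pseudocount (0.1), the filter (none, or 5 FPKM), scaling (median of ratios, quantile, plain sum), limma without trend, limma-voom on recovered fragments, a replicate block and leaving out each library. Transcripts and windows came from GENCODE M21, promoters from RefSeq GRCm38.p6.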

Additional observations from a re-analysis of the deposited data

How the results depend on the processing

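The count of members called higher (11) stayed between 9 and 15 in all alternatives but the filter at a mean of 5 FPKM, which tested 13 members and called 6 higher and 1 lower. The count called lower (2) was 1 with quantile normalization and with limma-voom on recovered fragments, and 3 with the median of ratios, which added *Hist1h4n*. Of the 13 called members, 9 were called in the same direction in every alternative that tested them, and 8 of these were higher. Members with at least 60% unique windows, a choice made after seeing the data, gave 10 higher and 2 lower. Quantile normalization moved the median of all genes to 0.21. It gave 5164 genes higher, 21 histone supply genes higher and 0 lower. At 5 FPKM, 1950 genes were lower. The plain sum of fragments and limma without trend each left 1 supply gene lower. Leaving out single libraries gave 965 to 1752 genes higher, 1 to 3 members lower, 4 to 7 supply genes higher and 0 to 3 lower. Replicate numbers were shared by the groups, but same-numbered libraries did not deviate together (r = -0.0014, -0.11 and 0.016). With the replicate block 891 genes were higher, 3 supply genes were higher and 0 lower. It called 11 members higher, of which 9 were among the 11 called without it, and the calls of *Hist1h4j*, *Hist3h2a* and *Hist1h1a* were lost, while *Hist1h2ab* and *Hist1h4m* were called higher and *Hist1h4a* lower. The causes of these changes were not tested. None of the 13 called members and no named gene of the lists changed sign in these alternatives, but 11 of the 18 tested members that were not called did, among them *Hist1h2ba*, *Hist1h2al* and *Hist1h3a*. With no filter on FPKM, 14 members were called higher, of which 9 were among the 11, and the 5 others lay under 1 FPKM (*Hist1h2ac*, *Hist2h3c2*, *Hist1h3g*, *Hist1h4b* and *Hist1h2be*, which overlaps *Hist1h1e*). *Hist2h2ac* was then called lower, and the calls of *Hist1h4c*, *Hist3h2a* and *Hist1h1a* were lost.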

Other observations

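The pseudogene *Hist1h2al* shared its pattern over the libraries with 1 other gene. *Gm5900* was at 5.34 FPKM in Control replicate 1 and 5.09 in cKO replicate 1, and at most 0.877 in the other 4 libraries. *Gm9229* was the only gene with the like pattern for replicate 3, at 8.26 FPKM in Control and 12.5 in cKO and at most 0.542 elsewhere, and no gene showed it for replicate 2. These genes were found by a search for at least 5 FPKM in both same-numbered libraries and under 1 FPKM in the rest, after *Hist1h2al* had been seen. What same-numbered libraries share is not given in the labels.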
